A study of Homo sapiens with 56 samples.

Results

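Interferon-stimulated genes are the genes that cells switch on when interferon binds its receptors, and 37 of them were chosen by name and followed across 28 ovarian cancer cell lines. Of these, 36 were measured, among 18377 genes in all. STAT2 was not analysed here. A gene was read from a probe set that the array annotation assigns to that gene alone, older symbols included, and from the probe set with the highest mean where a gene had several. The rule goes by name and not by expression. RNA of each line was hybridised to 2 Affymetrix Human Gene ST arrays, 56 arrays in all, and the deposited values are log2 intensities after robust multi-array averaging (RMA). A level is the mean of both arrays of a line on this log2 scale, so 1 unit is a doubling. Levels of different genes come from different probes, so where they are set side by side the comparison is only rough.

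All lines are established human ovarian cancer lines grown with serum, and no group was given interferon or any other agent to provoke a response. Each line is a group of its own. The labels give the base medium, which was DMEM for 10 lines, RPMI 1640 for 9, a mixture of DMEM and F12 for 7, RPMI 1640 with MEGM for UWB1.289 and MCDB105 with M199 for TOV112D. Serum was at 10% for 22 lines, 20% for 2, 5% for 3 and 3% for 1. The 3 lines at 5% also had hydrocortisone, 0.4 µg/ml for OV17R and 0.5 µg/ml for OV56 and OV7, with 10 µg/ml insulin. Insulin was given to 5 further lines, at 0.7 µg/ml to OAW28 and OAW42 and at 10 µg/ml to OVCAR2, OVCAR3 and OVCAR5. Nothing says that the duplicate arrays of a line are separate cultures. P-values between lines therefore rest on a spread of arrays that may be purely technical, and 2 arrays a line limit the precision.

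Type I interferons bind the IFNAR1 and IFNAR2 receptor chains, which activate the kinases JAK1 and TYK2 and, through them, a transcription factor complex with IRF9 that binds the interferon-stimulated response element in gene promoters. The induced proteins bind, modify or destroy viral RNA, sense it, conjugate the ubiquitin-like protein ISG15 to other proteins, or regulate the response itself. Many of these genes also have a basal, or tonic, level in cells that have met no virus.

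In 25 lines both arrays were alike, with a correlation of 0.851 to 0.951 over all genes centred on their means. In HEYC2, OV56 and OVCA420 it was only -0.0582 to 0.0956. The first array of HEYC2, the second of OV56 and the first of OVCA420 instead resembled each other, at 0.881 to 0.911. These are the 3 arrays that stand apart. Some of the counts and levels that rest on them, but not all, are given with and without them. HEY and HEYC2 are related by name, and replicate 2 of HEYC2 was closest to HEY (0.786). Of the leukocyte markers, 7 of 10 were measured. Their mean level ran from 4.74 to 5.77 over the lines, and its correlation with the mean level of the interferon-stimulated genes was -0.0606. PTPRC, the pan-leukocyte marker, lay between 2.80 and 3.93. CD68, a macrophage marker that other cells also express, ran from 6.44 to 10.73 (TYKNU), and CD14, a monocyte marker, from 5.56 to 7.90 (CAOV3). Their part in the results was not tested. Fibroblast markers (8 of 8) ran from 5.02 to 7.73 with a correlation of -0.0309, and endothelial markers (5 of 5) from 4.57 to 8.08 with 0.0967, the top value being TYKNU. Mean levels of 8 epithelial and Mullerian carcinoma markers ran from 7.18 in COLO720E to 11.49 in PEO1, with a correlation of 0.258.

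Promoter sequences are shown first because the response element core is frequent among these genes. Promoters of 300 bases, taken from RefSeq on GRCh38.p14, were on hand for 28 of the 36 genes. The core of the response element was searched as GAAANNGAAA and as TTTCNNTTTC for the other strand, overlapping matches included. It was found in 17 of the 28 promoters (60.7%), against 996 of 27305 promoters of all genes (3.65%). The palindrome TTCNNNGAA, the form of the gamma-activated site, was found in 7 of 28 (25.0%) against 7.88% of all. Windows upstream of the start site follow for genes whose levels are described below, 5′ to 3′ on the strand of the gene, with the core in capitals. They were chosen to hold variable genes (SAMD9, IFIT1, BST2, IFI6, IFI27, DDX60, HERC5) beside genes that hardly varied (ISG15, ISG20).
SAMD9 (chr7:93118091-93118130, minus strand): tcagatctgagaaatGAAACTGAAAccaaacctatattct
IFIT1 (chr10:89392492-89392544, plus strand): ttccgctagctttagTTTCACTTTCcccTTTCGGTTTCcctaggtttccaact
BST2 (chr19:17405730-17405775, minus strand): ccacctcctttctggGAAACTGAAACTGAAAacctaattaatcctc
IFI6 (chr1:27672261-27672322, minus strand): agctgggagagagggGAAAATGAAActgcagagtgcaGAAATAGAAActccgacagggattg
IFI27 (chr14:94110613-94110665, plus strand): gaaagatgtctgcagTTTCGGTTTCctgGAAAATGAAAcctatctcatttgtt
DDX60 (chr4:168318781-168318855, minus strand): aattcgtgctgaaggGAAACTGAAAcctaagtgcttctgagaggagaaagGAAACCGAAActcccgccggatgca
HERC5 (chr4:88457030-88457069, plus strand): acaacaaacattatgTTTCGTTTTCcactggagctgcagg
ISG15 (chr1:1013369-1013414, plus strand): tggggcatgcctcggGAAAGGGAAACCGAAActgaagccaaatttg
ISG20 (chr15:88638932-88638971, plus strand): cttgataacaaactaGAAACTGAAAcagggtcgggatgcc
The first core shown starts 136 bases before the start site in SAMD9, 130 in BST2, 113 in ISG15 and 69 in ISG20. In BST2 and in ISG15 a pair of matches overlap. IFI6 and HERC5 hold 3 matches each, of which 2 and 1 lie in the windows shown. The median SD over lines was 1.10 log2 units for the 17 genes with a core and 0.84 for the 11 without, and the median correlation with the other genes of the set was 0.634 and 0.650. A match describes these letters and is not a binding site.

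The interferon-stimulated genes varied widely among lines for which the labels name no interferon treatment. By limma's F-test across the 28 lines, 35 of the 36 genes differed beyond the spread of duplicate arrays (adjusted p under 0.05), where 65.7% of all genes did. The exception was IRF7 (adjusted p = 0.385), a transcription factor that amplifies the response. The same 65.7% is the background for every count by role group or pathway list below. The SD over lines reached 1 log2 unit in 18 of 36 genes, against 6.98% of all genes, and 24 of 36 lay above the 90th percentile of all genes. The median SD was 1.01 log2 units over the set and 0.42 over all genes.

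**Figure D1:**
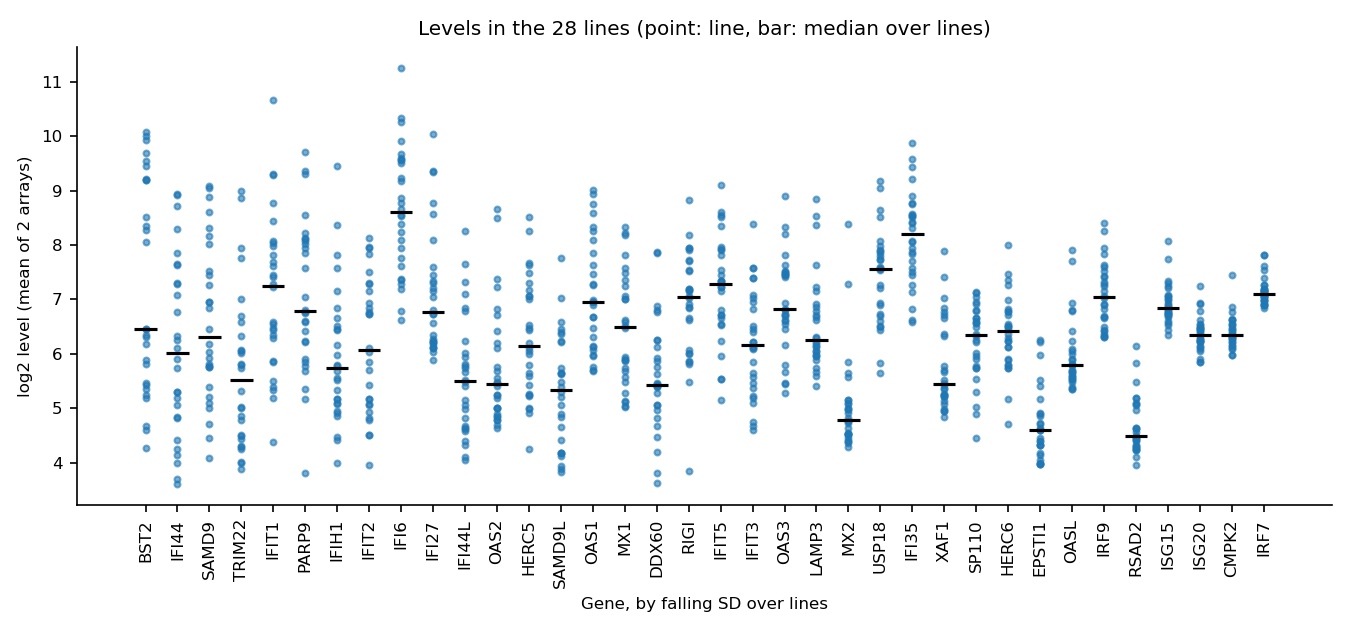
Log2 level (mean of 2 arrays) of each of the 36 interferon-stimulated genes in each of 28 lines, with genes on the horizontal axis by falling SD over lines, a point for each line and a bar for the median. BST2 spreads from 4.26 to 10.07 and is split, whereas IRF7, CMPK2, ISG20 and ISG15 stay within narrow ranges.

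Among the RNA-binding and nuclease effectors, 13 of 13 measured genes differed between lines, and SAMD9, IFIT1 and IFIT2 varied most. SAMD9, an antiviral factor that restricts poxviruses, ranged from 4.08 in TOV112D over a median of 6.31 to 9.09 in DOV13. OV7 at 9.05 was next to DOV13, with an array at 9.21, so the top lines overlap. The SD of SAMD9 was 1.46 over lines and 0.76 between arrays, the widest array spread of the genes named here. Wide gaps lay in the lines with an array that stands apart. That array and the other read 4.21 and 7.32 in HEYC2, 4.69 and 8.21 in OVCA420, and 5.02 and 7.03 in OV56. JHOS4, with no such array, read 6.78 and 4.73. IFIT1, which binds viral RNA that lacks the cap methylation of host RNA, ranged from 4.37 in OVCA420 over 7.26 to 10.66 in A2780. Its arrays in A2780 read 10.78 and 10.55, clear of the highest other array at 9.56 in JHOS4. Its arrays in OVCA420 read 4.30 and 4.45, both below those of all other lines, so the low value does not rest on the array that stands apart. IFIT1 exceeded the mean of the other lines by 3.68 in A2780 (standard error 0.33, adjusted p = 1.85e-10, limma). IFIT2, a partner of IFIT1 and IFIT3, ranged from 3.95 in OVCA420 over 6.07 to 8.13 in A2780, where an array of JHOS4 at 8.34 lay above both arrays of A2780. In OVCA420 the array of IFIT2 that stands apart read 4.61 and the other 3.28.

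The IFIT genes lie side by side on chromosome 10 and moved together over the 28 lines. Pearson's r was 0.911 for IFIT2 and IFIT3, 0.839 for IFIT1 and IFIT2 and 0.81 for IFIT1 and IFIT3, and 0.593 to 0.628 for the pairs with IFIT5. The OAS genes on chromosome 12, whose enzymes make the second messenger that activates RNase L, had an r of 0.826 (OAS1 and OAS2), 0.793 (OAS1 and OAS3) and 0.74 (OAS2 and OAS3). SAMD9 and SAMD9L on chromosome 7 had an r of 0.881. Family members share sequence as well as a place in the genome, and whether their probes bind each other's RNA was not tested. Between families the likeness was lower, with an r of 0.448 between the mean IFIT and the mean OAS level, each gene centred on its mean over lines.

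The IFIT and OAS families came apart in several lines. In A2780 the 4 IFIT genes lay 2.40 above their means on average and the 4 OAS genes 0.52 above, of which OAS2 was itself called higher there. In JHOS4 the values were 1.64 and -0.18. The reverse was seen in TYKNU, with -0.04 for the IFIT genes and 1.61 for the OAS genes, and in UWB1.289, with -1.02 and 1.02. OAS2 reached its highest level, 8.67, in TYKNU and OAS1 its highest, 9.02, in UWB1.289. The highest arrays of other lines overlapped both, at 8.65 in JHOS3 for OAS2 and 9.18 in OV56 for OAS1. In UWB1.289, 8 of 36 genes were higher than in the other lines (background 4.17%), among them OAS1, OAS2, IFIH1 and BST2. There 5 were lower (background 1.98%), namely IFIT2, IFIT3, IFIT5, RIGI and TRIM22, and with only 1 of its arrays 1 was lower, whichever array was used. A lone array widens the standard error of its line, so calls can fall even where both arrays agree. TYKNU had 6 higher (3.6%) and JHOS4 8 higher (4.0%), the latter 5 without its replicate 1. In TYKNU 3 were lower (3.9%), and 1 without its replicate 2. In JHOS4 4 were lower (2.02%), and 2 without its replicate 2.

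4 effectors varied less. ISG20, a 3′ exonuclease, ranged from 5.85 to 7.24 (OV56, where the array that stands apart read 7.53 and the other 6.95) with an SD of 0.33, and CMPK2, a mitochondrial nucleotide kinase, from 5.98 to 7.45 with an SD of 0.30. RSAD2 (viperin), which makes a chain-terminating nucleotide, had an SD of 0.53 and its highest level, 6.15, in JHOS3. OASL, an OAS relative without synthetase activity, had an SD of 0.66 and was also highest in JHOS3, at 7.90. RSAD2 and CMPK2 overlap at their ends on chromosome 2 and had an r of 0.439.

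All 6 genes of the GTPase and membrane protein group differed between lines, and BST2 had the widest SD of the whole set. BST2 (tetherin), which holds budding virus at the cell surface, ranged from 4.26 in OVCA420 over 6.45 to 10.07 in CAOV3, with an SD of 1.96 over lines and 0.27 between arrays. Its arrays in OVCA420 read 4.70, on the one that stands apart, and 3.82. Its levels fell into a lower run of 15 lines that ended at 6.45 and an upper run of 13 lines that began at 8.06 with TYKNU. The step of 1.61 between them was the widest of any of the 36 genes among steps with at least 3 lines on each side, the next being 0.76. BST2 was higher than in the other lines in 12 lines and lower in 11. It did not follow the rest closely, with an r of 0.488 with the mean of the other 35 genes: OVCAR2, CH1 and OAW28, all low on the other genes, read 9.19 to 9.22 for BST2, and DOV13 and OV7 read 6.45 and 6.18.

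IFI6, a small hydrophobic protein of mitochondria and endoplasmic reticulum, ranged from 6.62 in PEO1 over 8.60 to 11.26 in JHOS3. Both arrays of JHOS3 (11.25 and 11.27) lay above the highest other array, 11.07 in OV7. IFI27, a related protein, ranged from 5.88 in OVCAR2 over 6.77 to 10.04 in JHOS3, also clear of all other arrays. It was 3.01 above the other lines in JHOS3 (standard error 0.23, adjusted p = 1.75e-11, limma). MX1, a GTPase that traps viral nucleocapsids, ranged from 5.03 in OAW42 over 6.49 to 8.34 in OVCA433. The single highest array was replicate 1 of OV56 at 9.09, whose duplicate, an array that stands apart, read 7.28. MX1 was the gene most like the rest of the set, with an r of 0.835 with the mean of the other genes.

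MX2, the neighbour of MX1 on chromosome 21 and a restriction factor of HIV, was the least like the rest, with an r of -0.0289, and of 0.108 with MX1. Its median was 4.78 and its highest levels were 8.38 in OVCAR5 and 7.29 in OV17R, where MX1 was at 7.0 and 5.68. In OVCAR5 it lay 3.46 above the other lines (standard error 0.23, adjusted p = 1.96e-13, limma), and both arrays were above those of every other line. LAMP3, a lysosomal membrane protein of dendritic cells that interferon also induces in other cells, ranged from 5.41 in SKOV3 over 6.26 to 8.85 in EFO21, where its arrays read 9.45 and 8.24.

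The RNA sensors all differed between lines, yet each had its own high and low lines. IFIH1 (MDA5), which senses long double-stranded RNA, ranged from 3.99 in SKOV3 over 5.73 to 9.46 in TOV112D. Both arrays of TOV112D (9.34 and 9.58) exceeded every other array, and it stood 3.62 above the other lines (standard error 0.30, adjusted p = 4.34e-11, limma). IFIH1 was the only gene of the set called higher in TOV112D, where 12 of 36 were lower (background 3.27%); without the 3 arrays 2 were higher. RIGI (listed as DDX58), the sensor of RNA with a 5′ triphosphate, ranged from 3.84 in UWB1.289 over 7.05 to 8.83 in JHOS3. Its arrays in UWB1.289 read 3.79 and 3.88 against 4.69 on the lowest other array, and its level there was 3.17 below the other lines (standard error 0.32, adjusted p = 2.7e-09, limma). In UWB1.289 IFIH1 was at 7.58. Over the 28 lines RIGI and IFIH1 had an r of only 0.163. DDX60, a helicase that aids RIGI signalling, ranged from 3.62 in OVCA420 over 5.43 to 7.87 in A2780, with JHOS3 at 7.85, and had an r of 0.601 with RIGI. In OVCA420 the array of DDX60 that stands apart read 3.29 and the other 3.94, beside a mean of 3.81 in FUOV1.

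Of the ISG15 conjugation genes, all 4 differed between lines. ISG15 itself, the ubiquitin-like modifier, moved little, from 6.34 in COLO720E over 6.85 to 8.08 in JHOS3, with an SD of 0.38 over lines and 0.29 between arrays. It was called higher in JHOS3 alone, by 1.19 (standard error 0.21, adjusted p = 5.9e-05, limma), and lower in no line. USP18, the protease that removes ISG15 and also dampens the receptor, ranged from 5.65 in OVCAR5 over 7.56 to 9.18 in CAOV3. HERC5, the ligase that attaches ISG15, ranged from 4.25 in HEYC2 over 6.15 to 8.51 in SKOV3, and CH1 followed at 8.26. SKOV3 and CH1 were both low in the set as a whole. In HEYC2 the arrays read 4.37 and 4.12, so the low value of HERC5 is on both. HERC6, its neighbour on chromosome 4, ranged from 4.71 in OVCAR2 over 6.41 to 8.0 in PEO1 and had an r of 0.411 with HERC5. ISG15 had an r of 0.247 with USP18 and 0.0875 with HERC5.

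Among the transcription factors and nuclear regulators, 4 of 5 measured genes differed. TRIM22, a nuclear ubiquitin ligase that restricts HIV and influenza virus, ranged from 3.88 in OVCAR2 over 5.52 to 9.0 in OVCA433. DOV13 at 8.87, CH1 at 7.95 and HEY at 7.76 followed. HEYC2 read 4.95 on the array that stands apart and 8.44 on the other. TRIM22 had an r of only 0.186 with the mean of the other genes: CH1 and HEY were low on the others, and TYKNU, JHOS4 and UWB1.289, where TRIM22 was called lower, had mean levels above 0. PARP9, which acts with the ligase DTX3L, ranged from 3.80 in FUOV1 over 6.79 to 9.72 in JHOS3. In FUOV1 its arrays read 3.15 and 4.45, and an array of OVCA420 at 4.19 lay between them. SP110, a nuclear body protein, ranged from 4.45 in OVCAR2 over 6.34 to 7.14 in EFO21. It was called lower in 3 lines and higher in none. IRF9, the DNA-binding part of the complex at the response element, had a smaller SD of 0.60 but followed the set closely (r 0.784), from 6.30 in FUOV1 to 8.40 in A2780. IRF7 ranged from 6.85 to 7.82, and its top line OV56 had arrays at 7.19 and 8.46, the second of which stands apart.

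All 5 of the other interferon-induced proteins differed. IFI44, an inhibitor of virus replication, ranged from 3.61 in OAW42 over 6.01 to 8.93 in OVCA432, with an SD of 1.64. TYKNU at 8.92 and JHOS3 at 8.71 were next. A2780 was at 4.0, and IFI44 was the only gene of the set called lower in that line, by -2.20 (standard error 0.45, adjusted p = 0.000338, limma), where without the 3 arrays 2 genes were lower. IFI44L, its neighbour on chromosome 1, ranged from 4.04 in OAW42 over 5.50 to 8.26 in JHOS3 and had an r of 0.495 with IFI44. XAF1, a proapoptotic protein, ranged from 4.84 in OV17R over 5.45 to 7.89 in A2780, where both arrays lay above those of all other lines. IFI35 and EPSTI1 had SDs of 0.86 and 0.66.

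In 15 of the 36 genes both arrays of the highest line lay above those of all 27 other lines, and in 4 genes (IFIT1, IFIH1, RIGI and HERC5) both arrays of the lowest line lay below all others. These counts were not made over all genes, so they do not set the 36 genes apart from other genes. JHOS3 held the highest level of 8 genes and A2780 of 7. The lowest levels were held by OVCAR2 in 6 genes, OVCA420 in 5 and FUOV1, OAW42 and CH1 in 4 each.

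The mean of the 36 genes, each centred on its mean over lines, gives one value for each line. It ranged from -1.07 in FUOV1 to 1.39 in JHOS3, with an SD over lines of 0.59 and an SD between arrays of a line of 0.17, and 14 lines lay above 0 and 14 below. JHOS3 read 1.35 and 1.44 on its arrays. It was followed by CAOV3 (0.80), OVCA433 (0.79), DOV13 (0.70) and A2780 (0.64). FUOV1 was followed by COLO720E (-0.84), OVCA420 (-0.71), OAW42 (-0.61) and HEYC2 (-0.59). Only 3 of the 27 steps between neighbours in the order exceeded the SD between arrays, the widest being the 0.60 between CAOV3 and JHOS3. By this SD most neighbours do not differ beyond the array spread. The SD takes in the lines with an array that stands apart, and the median difference between arrays of a line was 0.07. The arrays of a line differed by less than 0.2 in 24 of 28 lines. They differed by 0.99 in OV56 (1.02 on replicate 1 and 0.03 on the array that stands apart) and by 0.55 in FUOV1 (-1.34 and -0.79). Without the 3 arrays OV56 was second at 1.01, and the step up to JHOS3 (1.38) narrowed to 0.38.

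**Figure D2:**
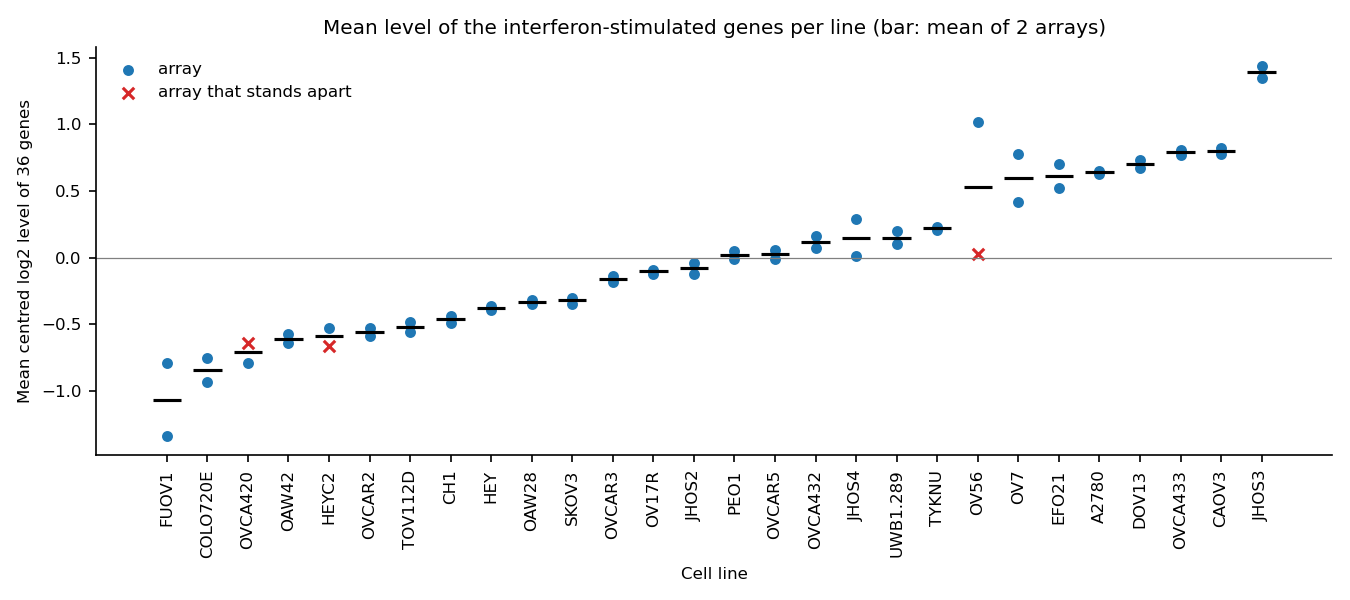
Mean centred log2 level of the 36 interferon-stimulated genes (vertical axis) in each of 28 lines, with points for single arrays, bars for the mean of 2 arrays and crosses for the 3 arrays that stand apart. JHOS3 lies above all other lines at 1.39, FUOV1 lies lowest at -1.07 with its arrays 0.55 apart, and the arrays of OV56 lie 0.99 apart.

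Each line was compared with the mean of the other lines by limma, and a gene was called at an adjusted p (over all genes) under 0.05 and a difference of at least 1 log2 unit. Of 1008 pairs of a gene of the set and a line, 156 were called higher (15.5%), where 3.78% of such pairs were over all genes, and 151 were called lower, where 3.56% were. The comparisons share lines and are not independent of each other.

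JHOS3 had 25 of 36 genes higher and none lower, where 4.02% of all genes were higher. These took in 10 of 13 RNA-binding effectors and all 3 RNA sensors. The largest differences were IFI27 by 3.01, OAS2 by 2.82 (standard error 0.24, adjusted p = 1.06e-10, limma) and PARP9 and IFI44L by 2.75 each. IFIT5, ISG20, CMPK2, MX2, LAMP3, USP18, IRF7, SP110, TRIM22, IFI35 and EPSTI1 were not called there. With either array alone 22 or 23 genes were higher. A2780 had 14 higher (background 3.41%), among them all 4 IFIT genes, DDX60, IRF9 and XAF1, and IFI44 lower. OV7 had 13 higher (4.41%), and 5 without its replicate 2. CAOV3 (5.17%), OVCA433 (2.63%) and DOV13 (4.56%) had 11 higher each. OVCA433 had 6 without its replicate 2, and DOV13 had 4 or 5 with a single array. In the mean of the set their arrays differed by only 0.04 in OVCA433 and 0.06 in DOV13, and a lone array widens the standard error. OV56 had 8 higher (3.12%), and 20 without the 3 arrays that stand apart.

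FUOV1 had 20 of 36 genes lower and none higher, where 5.97% of all genes were lower. The largest were PARP9 by -3.39 (standard error 0.40, adjusted p = 4.1e-08, limma), BST2 by -2.76, IFI44 by -2.52 and IFIT1 by -2.01. Without its replicate 1, the lower of its arrays, 11 were lower. COLO720E had 14 lower (4.45%), and 9 without its replicate 1. OVCA420 had 13 lower, in a line where 17.2% of all genes were lower and an array stands apart. OAW42 had 12 lower (3.3%), and CH1 had 11 (2.23%), or 5 without its replicate 1. HEYC2 had 8 lower against 8.64% of all genes, and 14 when only the array that stands apart was kept.

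**Figure D3:**
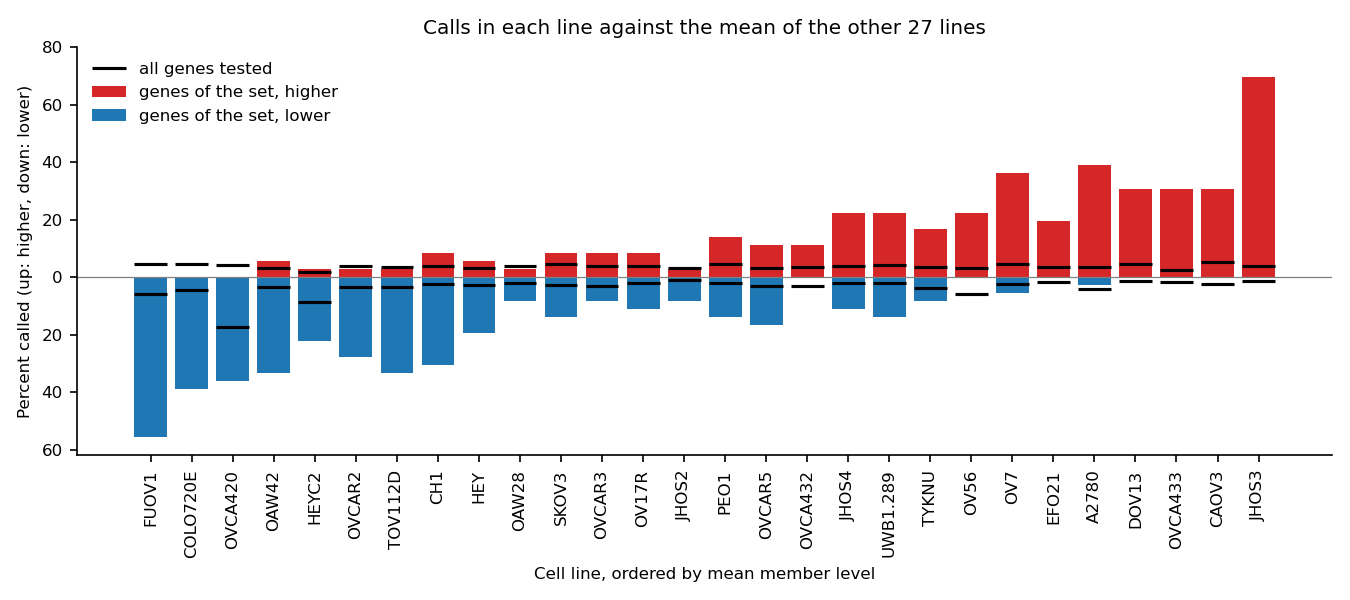
Percent of the 36 interferon-stimulated genes called higher (upward bars) and lower (downward bars) in each line against the mean of the other 27 lines by limma, with black marks for the percent of all genes tested. JHOS3 has 25 genes higher and FUOV1 20 lower, and lines in the middle of the order have calls in both directions.

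**Figure D4:**
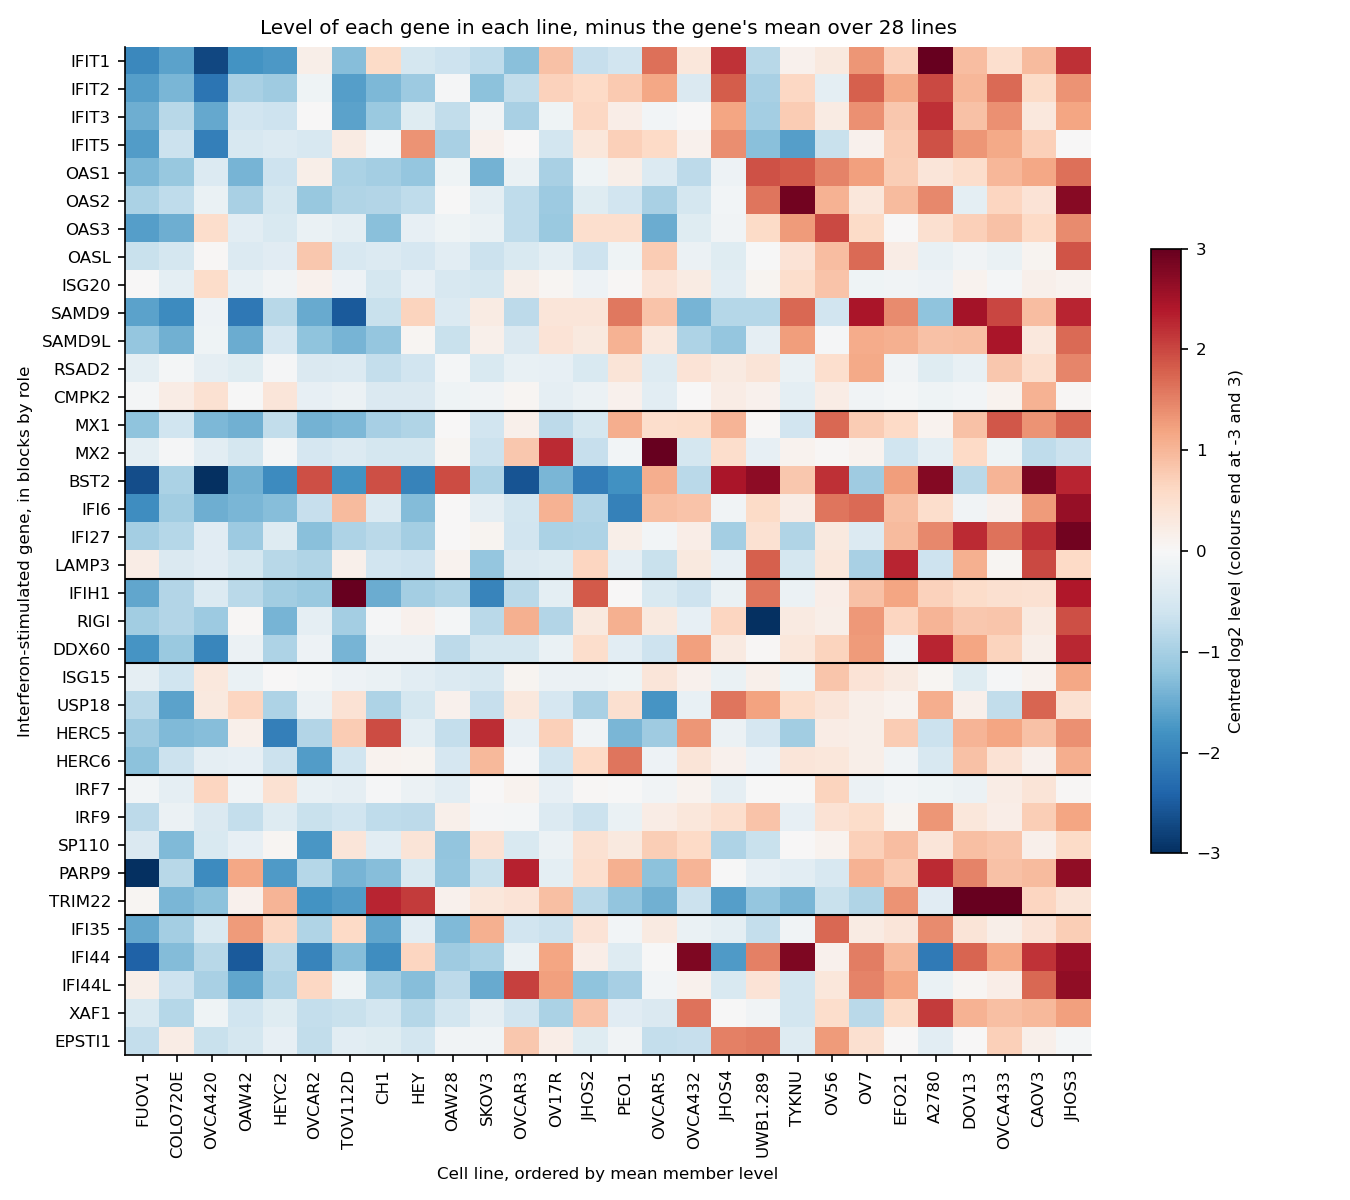
Level of each of the 36 interferon-stimulated genes (rows, in blocks by role) in each of 28 lines (columns, ordered by mean level of the set), as the log2 level minus the mean of the gene over lines. The rise from FUOV1 to JHOS3 is shared by most rows, whereas MX2, TRIM22, BST2, IFIH1 and RIGI have strong cells that go against the order.

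The genes of the set tended to move together over the lines, but loosely. Over the 630 pairs of genes Pearson's r ran from -0.356 (OAS3 and MX2) to 0.911, with a mean of 0.323 (0.356 without the 3 arrays that stand apart) and 568 pairs above 0. The mean over all pairs of the 18377 genes was 0.0157, and 0.0385 over genes with an SD of at least 1. The lines share an array type and a normalization, and these correlations are descriptions over 28 lines. With the mean of the other genes, 23 of 36 had an r above 0.5, led by MX1 (0.835), DDX60 (0.81), IFI27 (0.791), IRF9 (0.784) and IFIT3 (0.778). 5 had an r below 0.25, namely MX2, IRF7 (0.121), CMPK2 (0.173), TRIM22 and ISG20 (0.242). Without the 3 arrays that stand apart, r rose to 0.45 for IRF7 and 0.412 for ISG20 and stayed at -0.0149 for MX2 and 0.107 for TRIM22.

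Genes outside the set whose levels were most like its mean were mostly known interferon-induced genes. The 10 closest over 28 lines were APOL6 (r 0.792), PSMB8 (0.784), DTX3L (0.734), VPS11 (0.731), NMI (0.708), PLAAT4 (0.702), PARP14 (0.699), MIR31HG (0.698), IRF1 (0.694) and PSMB9 (0.692). PSMB8 and PSMB9 are immunoproteasome subunits and DTX3L is the partner of PARP9. PSMB8 ranged from 5.24 in FUOV1 over 7.88 to 9.96 in DOV13. DTX3L, which starts next to PARP9 on chromosome 3, had an r of 0.973 with PARP9. Of the 10, 7 had their lowest level in FUOV1. VPS11, a vesicle tethering protein, varied little, with an SD of 0.43.

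Most interferon ligands varied little, and most read low. The median level of the list was 3.44, where the median level of all genes was 6.75. Whether these ligands were expressed at all was not tested, so small differences and an r at such levels say little about them. Of 21 listed, 16 were measured, and 2 differed between lines by the F-test, IFNE (adjusted p = 0.00302) and IFNG (adjusted p = 0.000135). IFNE, the interferon of the reproductive tract, ranged from 2.84 in FUOV1 over 3.30 to 4.02 in OV7 and had the highest r of the ligands with the mean of the set, 0.551. IFNG, the type II interferon, ranged from 2.91 in OVCAR5 over 3.21 to 5.15 in A2780 and was called higher in 1 line. IFNA5 (0.085) and IFNG (0.0517) came next, and IFNA21 (-0.409) and IFNW1 (-0.336) were lowest. IFNB1 lay between 2.90 and 3.82 (r -0.00207).

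All 6 receptor chains differed between lines, where 65.7% of all genes did. With the mean of the set r was 0.434 for IFNAR2, 0.423 for IL10RB, 0.33 for IFNAR1, 0.234 for IFNLR1 and -0.107 for IFNGR1. IFNAR2 ranged from 6.29 in OVCA420 over 7.22 to 8.49 in TOV112D. No receptor was called higher in JHOS3 (background 4.02%), and 2 were called lower in FUOV1 (background 5.97%). All 8 measured kinases and transcription factors of the pathway differed (background 65.7%). Only IRF1, the factor that interferon gamma induces first, had an r above 0.5 (0.694). It ranged from 6.03 in FUOV1 over 7.07 to 9.01 in A2780. IRF2 (0.4) and IRF5 (0.299) came next, and IRF3 (0.0777) and STAT3 (0.163) were lowest.

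Of 14 genes of nucleic acid sensing, 9 differed, where 65.7% of all genes did. TRIM25, the ubiquitin ligase of RIGI, had an r of 0.679, IFI16, a DNA sensor, 0.614, and DHX58, a relative of RIGI, 0.558. Without the 3 arrays EIF2AK2, the kinase activated by double-stranded RNA, led this list at 0.721 (0.552 with all arrays), and TICAM1, the adaptor of TLR3, went from 0.213 to 0.556. Both were named after their values were seen. IFI16 ranged from 3.16 in OVCAR3 over 6.34 to 9.51 in JHOS3. ZBP1 (-0.183) and AIM2 (0.0391) had the lowest values. Of 10 measured negative regulators 9 differed, with an r of 0.438 for SAMHD1, 0.277 for PTPN6 and 0.22 for ADAR at the top and -0.44 for RNASEH2C and -0.244 for PIAS1 at the bottom. Of 37 measured further interferon-induced genes 35 differed (background 65.7%), and the median r of the 37 was 0.538. Of the 37, 10 were higher in JHOS3 (background 4.02%) and 12 lower in FUOV1 (background 5.97%). Here BATF2 (-0.0559) and SLFN11 (0.147) had the lowest r. The median r with the mean of the set was -0.0475 over all genes outside it.

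The study ordered ovarian cancer lines by an EMT score, which is higher in more mesenchymal lines. The score was rebuilt as the signed Kolmogorov-Smirnov statistic between 200 mesenchymal and 182 epithelial signature genes. None of the 36 genes is among the 420 genes of the signature list used. That list is shorter than the signature the study describes, so the rebuilt score may differ from the score of the study. No gene of the set passed an adjusted p under 0.05 by Spearman's rho with permutation of the score, where 0.794% of all genes did, and 8 had an unadjusted p under 0.05, as did 1851 of the 18377 genes. A rho below -0.5 was seen in 5 of 36 genes, against 2.08% of all genes, and above 0.5 in none, against 1.02%. In 34 of 36 genes rho was negative, where 9556 of the 18377 genes had a rho above 0. The median rho was -0.30 over the set and 0.012 over all genes. The genes of the set move together over the same lines, so these signs and counts are not independent observations.

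The 5 genes were CMPK2 (rho -0.577, permutation p = 0.00177, adjusted p = 0.125), MX1 (-0.575, permutation p = 0.00184, adjusted p = 0.128), LAMP3 (-0.573, permutation p = 0.00177, adjusted p = 0.125), RSAD2 (-0.547, permutation p = 0.00307, adjusted p = 0.161) and XAF1 (-0.505, permutation p = 0.00691, adjusted p = 0.229), over 28 lines. Pearson's r was -0.522 for CMPK2 (permutation p = 0.003), -0.57 for MX1 (permutation p = 0.00186), -0.488 for LAMP3 (permutation p = 0.00777), -0.494 for RSAD2 (permutation p = 0.00651) and -0.341 for XAF1 (permutation p = 0.075). CMPK2 hardly varied, with an SD of 0.3 over lines and an adjusted p of 0.0462 by limma's F-test. Its arrays that stand apart read higher than their duplicates, at 7.70 and 6.02 in OVCA420, 7.32 and 6.21 in HEYC2 and 7.01 and 6.25 in OV56. Without TOV112D and PEO1, the lines farthest from the median score, r was -0.505 for MX1, -0.585 for LAMP3 and -0.367 for XAF1. Within base media rho of MX1 was -0.515 among DMEM lines, -0.7 among RPMI lines and -0.393 among DMEM/F12 lines. RSAD2 had -0.721 in DMEM and -0.517 in RPMI but 0.179 in DMEM/F12, so its direction did not hold there. The mean level of RSAD2 over lines was below 5, and whether it was expressed in every line was not tested.

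**Figure D5:**
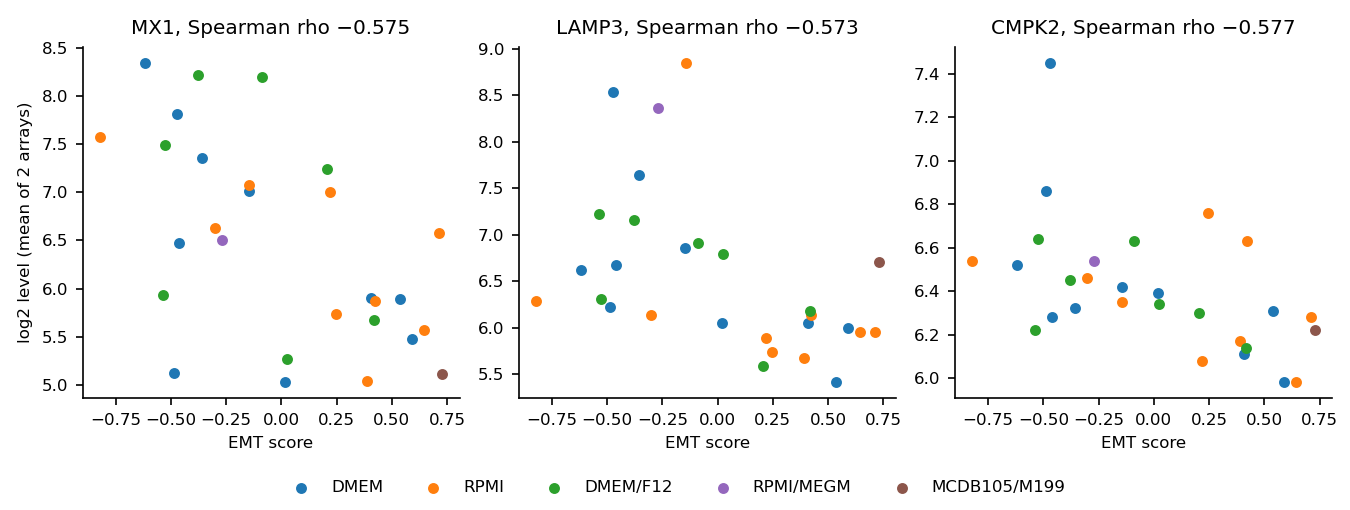
Log2 level (mean of 2 arrays, vertical axes) of MX1, LAMP3 and CMPK2 against the EMT score (horizontal axes, no unit) in 28 lines, coloured by base medium. The levels tend to be lower at higher scores, with rho of -0.575, -0.573 and -0.577, and lines of each medium are spread along the score.

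Base medium was the culture condition compared, and serum, insulin and hydrocortisone were not tested. By limma on line means, no gene of the set passed an adjusted p under 0.05 in any of the 3 contrasts, and neither did any of the 18377 genes (0.0%). At an unadjusted p under 0.05, 1 gene of the set passed for DMEM against RPMI, 0 for DMEM against DMEM/F12 and 1 for RPMI against DMEM/F12, where 2.81%, 1.7% and 2.17% of all genes did. These were HERC5, at 6.87 ± 1.24 (SD, n = 10 lines) in DMEM and 5.51 ± 0.81 (SD, n = 9) in RPMI, and RSAD2, at 4.48 ± 0.29 (SD, n = 9) in RPMI and 5.03 ± 0.74 (SD, n = 7) in DMEM/F12. The other genes with the smallest p were HERC6, OAS3, IFIT5 and TRIM22 for the first contrast, IFIH1, IFI44L, EPSTI1, ISG15 and OASL for the second, and HERC5, IFI6, EPSTI1 and IFIH1 for the third, none of which passed. The mean level of the set was 0.02 ± 0.59 (SD, n = 10) for DMEM, -0.14 ± 0.52 (SD, n = 9) for RPMI and 0.20 ± 0.76 (SD, n = 7) for DMEM/F12, and the lines of these media overlapped widely. The lines with hydrocortisone read -0.10 (OV17R), 0.53 (OV56) and 0.60 (OV7).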

How the data were processed

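The authors hybridised RNA of each line to 2 arrays and deposited log2 intensities after RMA, made with affy 1.42.3 per the submitters' processing notes. Which arrays were normalized together is not given in the sources used here. Values ran from 1.35 to 14.89, and array medians from 5.961 to 6.306. Of 28869 probe sets, 19310 carry 1 gene (19279 matched to a current symbol by gene ID), 1752 carry several and 7807 none that is listed. They gave 18377 genes, 685 of them with several probe sets. No filter on low values was applied. Of the 36 genes of the set, 34 had a mean level of at least 5, the filter of an alternative.

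Lines were compared with limma 3.58.1 (trend and robust, statmod 1.5.0, R 4.3.3) on 56 arrays, each line against the mean of the other 27, with Benjamini-Hochberg adjustment over all genes. Media were compared on means of 26 lines. The EMT score came from 182 epithelial and 200 mesenchymal genes of a published list, and rho was tested with 100000 permutations. The remaining steps ran in Python 3.11.15 with pandas 2.3.3, numpy 2.4.6, matplotlib 3.10.9 and scipy 1.17.1. Scripts were tested on simulated data.

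In each role group the 3 genes with the largest SD were named in full, with the 3 highest and 2 lowest by r of each pathway list, the 10 closest outside genes, and the 5 genes with the smallest p for each medium contrast and the score. Genes named for an unusual line (MX1, MX2, LAMP3, ISG15, IRF9 and others) were added after their values were seen. The genes, lists and settings were chosen with earlier results of these data known. Replicate numbers did not pair the arrays: over 378 pairs of lines the deviations of same-numbered arrays had a median correlation of -0.000247, from -0.887 to 0.871. Alternatives were a mean over probe sets, the filter, a further quantile normalization, the 3 arrays or single arrays left out, no trend or robust setting, a replicate block, no minimum difference, other forms of the score and HEY merged with HEYC2.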

Additional observations from a re-analysis of the deposited data

Results flagged for a closer look

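Within each base medium with 7 to 10 lines, the highest or lowest line of each gene and of the mean level of the set was compared with its neighbour by Dixon's criterion. Of 111 groups so compared 10 held a line far from the others. The nominal rate of the criterion, about 1 in 20 groups, is for independent and normally distributed values. The genes of the set move together, and the share over all genes was not taken, so no excess is shown. Among DMEM lines, OAS2 was at 8.67 in TYKNU, with OVCA433 next at 6.42. TYKNU also had the highest mean level of endothelial markers, and their part in the result was not tested. Among RPMI lines, MX2 was at 8.38 in OVCAR5 (next 5.85), LAMP3 at 8.85 in EFO21 (next 6.29), DDX60 at 7.87, IRF9 at 8.40 and XAF1 at 7.89 in A2780 (next 5.47, 7.32 and 6.37). Among DMEM/F12 lines, MX2 was at 7.29 in OV17R (next 5.58) and IFI27 at 10.04 in JHOS3 (next 7.44). ISG20 at 7.24 and IRF7 at 7.82 were highest in OV56 (next 6.47 and 7.20), whose second array stands apart.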

How the results depend on the processing

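Of 270 alternative values of the counts that answer a comparison, 265 stayed within 1.5 times the value reported. These take in counts with a single array left out, which can hardly move. They also take in base media counts, where no gene was called in the main comparison and the label holds while none is called. The share is therefore largely fixed in advance and is no measure of robustness. Without a minimum difference, 238 pairs were lower. The genes with a rho below -0.5 were 2 by Pearson's r and 3 each without the 3 arrays that stand apart and without the 2 lines farthest from the median score. With 1 array of each line there were 3 to 4. RSAD2 turned to 0.179 within DMEM/F12. With the replicate block 35 genes, 156 higher and 151 lower pairs were called, so the block changed no call count. With each array left out in turn, 34 to 36 genes differed across lines, 148 to 168 pairs were higher and 146 to 162 lower, a lone array being assumed to vary like the others. Of 695 alternative values for single genes or lines, 617 were labelled the same. For counts of a line this meant within 1.5 times the value reported. For single genes it meant the same direction and no change in passing an adjusted p under 0.05, or within a medium the direction alone. As no gene of the set passed in the main comparisons of score and media, this label was easily kept.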

Other observations

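MIR31HG and IFNE both lie on chromosome 9, and their levels had an r of 0.713 over the 28 lines, with 0.698 and 0.551 against the mean level of the set. IFNE read low in every line, from 2.84 to 4.02. The paired immunoproteasome genes PSMB8 and PSMB9 had an r of 0.719. IRF9 and IRF7 had an r of 0.0961, and IRF9 and IRF1 one of 0.506.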
